A study of Rattus norvegicus with 23 samples.

Results

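The collagen genes were taken as every gene with a single array symbol made of Col, a type number, the letter a and a chain number. This gave 41 of the 14217 genes with 1 symbol on the array, measured by 58 probe sets. Where a gene had more than 1 probe set, as 14 of the 41 did, the one with the highest mean was used. The 41 genes were grouped into 11 fibrillar collagens, 5 basement membrane collagens of type IV, 5 chains of type VI collagen and 20 other collagens. On the array's log2 scale, their mean signals ran from 2.25 for Col25a1 to 9.01 for Col4a1, and 20 of the 41 lay at or above the level of the median probe set, 4.66. The other 21 were dim on these arrays, and small differences between their groups say little about the RNA. Apart from these levels and the summed marker levels given below, signals of different probe sets were not compared with each other. Probe sets bind their targets with different strength, and bright ones weigh most in a sum.

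Whole-kidney RNA from male rats was measured on 23 Affymetrix arrays, in a series whose title names proteinuria. The rats came from the SBN/y and SBH/y strains, a pair of Sabra lines of which the first is known to resist hypertension and the second to be prone to it, and were fed standard chow. In each strain 1 group had lost the right kidney by uninephrectomy and 1 group had kept 2 kidneys after a sham operation, and all were killed at 4 months of age, 3 months after surgery. There were 5 samples of SBN/y with 2 kidneys, 6 of SBN/y with 1 kidney, 6 of SBH/y with 2 kidneys and 6 of SBH/y with 1 kidney. Whether the numbered samples of a group are separate animals is not stated further in the labels, so every p-value measures the spread between these samples only. No blood pressure, urine protein or histology of a sample was used here.

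Collagens are helical matrix proteins assembled from alpha chains, and each gene encodes 1 kind of chain. Fibrillar collagens, above all types I and III, form the fibres of connective tissue and are the main deposit of renal fibrosis. Type IV collagen forms the network of basement membranes, including that of the glomerular filter, and type VI forms beaded filaments around cells. In the kidney, interstitial fibroblasts and pericytes are known as the chief source of fibrillar collagen RNA, and many cell types make the chains Col4a1 and Col4a2. In whole-kidney RNA, more cells of a type and more RNA per cell cannot be told apart.

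In SBH/y rats, 13 of the 41 collagens were higher with 1 kidney than with 2, and 0 were lower, with limma's adjusted p under 0.05. Over all 14217 genes, 4.76% were called higher and 2.4% lower in this comparison. The 13 were 6 fibrillar genes (Col1a1, Col1a2, Col3a1, Col5a2, Col11a1 and Col24a1), the paired basement membrane genes Col4a1 and Col4a2, 3 type VI chains (Col6a1, Col6a3 and Col6a6) and, among the other collagens, Col15a1 and Col8a1. Their increases lay between 1.26-fold and 2.15-fold. In 8 of the 13 every sample with 1 kidney lay above every sample with 2, as it did in 2.97% of all genes, and in 0 collagens did they lie below, against 1.34%. The median difference was 0.05 log2 over the 41 collagens and 0.00 over all genes, and 16 of the 41 had an unadjusted p under 0.05, against 19.4% of all genes. By class the median was 0.42 in the fibrillar, 0.33 in the type VI, 0.03 in the basement membrane and 0.00 in the other collagens.

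**Figure D1:**
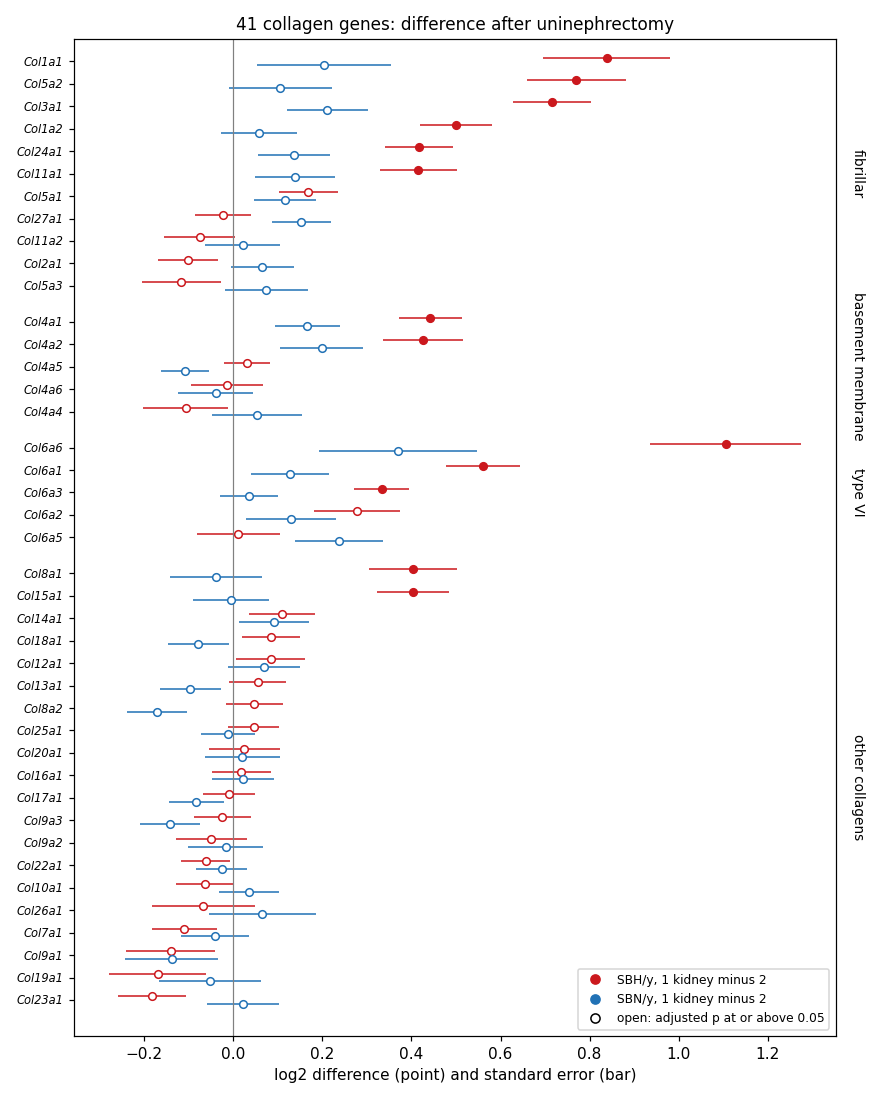
Log2 difference of 1 kidney minus 2 kidneys for each of the 41 collagen genes (points) with its standard error (bars), in SBH/y (red) and SBN/y (blue), grouped by class; filled points have an adjusted p under 0.05. The 13 filled points are all red and all to the right of 0, and no blue point is filled.

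Promoter sequence was available for 32 of the 41 genes in a RefSeq table of the GRCr8 assembly, as windows from 250 bases before to 50 bases after the transcript start. The windows of 3 called genes of different classes are shown here because their RNA rose together in SBH/y rats. They are written 5′ to 3′ on the gene's strand, and capitals mark matches on either strand to CCAAT (the core of the CCAAT box), to GGGCGG (the GC box) or to TATAAA (the TATA box). No match between these motifs overlaps another in the windows shown.
Col1a2 (chr4:33518307-33518606, plus strand): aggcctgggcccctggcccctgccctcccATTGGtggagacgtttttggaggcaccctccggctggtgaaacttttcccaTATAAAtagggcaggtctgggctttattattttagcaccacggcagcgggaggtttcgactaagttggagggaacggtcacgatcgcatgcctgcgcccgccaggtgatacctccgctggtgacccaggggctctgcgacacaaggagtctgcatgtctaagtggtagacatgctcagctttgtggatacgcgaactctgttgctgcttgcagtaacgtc
Col4a1 (chr16:84885347-84885646, plus strand): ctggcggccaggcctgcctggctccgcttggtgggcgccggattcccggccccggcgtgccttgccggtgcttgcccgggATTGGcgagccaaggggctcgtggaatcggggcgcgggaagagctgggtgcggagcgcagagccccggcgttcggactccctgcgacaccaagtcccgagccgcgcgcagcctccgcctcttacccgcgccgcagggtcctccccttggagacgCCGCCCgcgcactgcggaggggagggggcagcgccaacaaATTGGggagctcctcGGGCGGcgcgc
Col6a1 (chr20:11905440-11905739, plus strand): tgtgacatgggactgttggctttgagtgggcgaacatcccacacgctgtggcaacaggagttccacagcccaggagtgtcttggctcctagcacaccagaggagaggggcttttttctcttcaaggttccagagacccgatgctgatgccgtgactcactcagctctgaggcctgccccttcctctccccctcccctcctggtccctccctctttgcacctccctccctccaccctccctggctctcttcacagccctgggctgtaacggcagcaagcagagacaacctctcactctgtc

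The Col1a2 window held 1 CCAAT match, read on the opposite strand as ATTGG, and 1 TATAAA match. That of Col4a1 held 2 CCAAT and 2 GGGCGG matches, and that of Col6a1 held none of the letters searched. Among the 11 called genes with a window, CCAAT occurred in 36.4%, GGGCGG in 54.5% and TATAAA in 9.09%. Among the 21 collagens that were not called, the shares were 23.8%, 57.1% and 14.3%. Over all 33469 windows of the table they were 37.5%, 33.1% and 14.2%. The called genes and the uncalled ones thus held GGGCGG in nearly the same share, 6 of 11 and 12 of 21, above that of all windows. These are few windows, and the difference from all windows was not tested. Those of Col4a1 and Col4a2, both among the 11, share 176 bases, so a match in that stretch counts for both. These are matches of letters in a fixed window and say nothing of binding.

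Type I collagen, the most abundant fibre protein of scar tissue, is built from the products of Col1a1 and Col1a2. The Col1a1 signal in SBN/y was 6.69, 6.75, 7.02, 7.02 and 7.13 with 2 kidneys, and ran from 7.03 over a median of 7.12 to 7.26 with 1. In SBH/y it ran from 6.43 over 6.78 to 7.19 with 2 kidneys and from 7.03 over 7.70 to 8.14 with 1. The SBH/y samples with 1 kidney thus spread over more than 1 log2 unit, and the lowest of them overlapped the samples with 2 kidneys. The rise in SBH/y was 0.84 ± 0.14 log2 (SE, 1.79-fold, adjusted p = 0.000417), and a second Col1a1 probe set gave 0.68 (adjusted p = 0.000937). Col1a2 was tighter. Its signal was 7.61, 7.61, 7.68, 7.72 and 7.78 in SBN/y with 2 kidneys, from 7.53 over 7.70 to 8.02 in SBN/y with 1, from 7.64 over 7.80 to 7.98 in SBH/y with 2 and from 8.04 over 8.38 to 8.53 in SBH/y with 1. The SBH/y samples with 1 kidney all lay above every other sample, and the rise in SBH/y was 0.50 ± 0.08 (SE, 1.41-fold, adjusted p = 0.000234).

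Col3a1 encodes the chain of type III collagen, which forms fibres together with type I. In SBN/y it measured 7.78, 7.78, 7.78, 7.81 and 7.88 with 2 kidneys and from 7.91 over 7.98 to 8.22 with 1. In SBH/y it ran from 7.87 over 8.01 to 8.39 with 2 kidneys and from 8.50 over 8.75 to 9.09 with 1. The groups with 1 and 2 kidneys did not overlap in either strain. The rise was 0.72 ± 0.09 log2 in SBH/y (SE, 1.64-fold, adjusted p = 6.02e-06), the smallest adjusted p of any collagen in that comparison. Col5a2, a chain of type V collagen, which is known to control fibre thickness, measured 5.96, 5.97, 6.10, 6.14 and 6.19 in SBN/y with 2 kidneys and from 5.91 over 6.15 to 6.48 in SBN/y with 1. It ran from 5.89 over 6.01 to 6.18 in SBH/y with 2 kidneys and from 6.44 over 6.77 to 7.28 in SBH/y with 1. Only the SBH/y samples with 1 kidney stood apart, with 1 sample of SBN/y with 1 kidney reaching into their range, and the rise in SBH/y was 0.77 ± 0.11 (SE, 1.71-fold, adjusted p = 5.76e-05). Col3a1 and Col5a2 are neighbours in the GRCr8 annotation, with 0 protein-coding genes between them.
Col5a2 (chr9:55090102-55090401, minus strand): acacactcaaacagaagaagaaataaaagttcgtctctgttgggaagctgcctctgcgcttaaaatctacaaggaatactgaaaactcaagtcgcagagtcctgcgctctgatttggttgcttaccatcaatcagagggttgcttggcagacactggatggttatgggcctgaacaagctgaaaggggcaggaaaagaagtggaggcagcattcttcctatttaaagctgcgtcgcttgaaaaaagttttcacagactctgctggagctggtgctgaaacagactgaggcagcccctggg
This Col5a2 window, shown because its gene had the smallest adjusted p among collagens for a difference in response between the strains, held none of the letters searched.

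The remaining called fibrillar genes were dim. Col24a1, a fibrillar chain best known from bone, measured 2.89, 2.93, 3.01, 3.02 and 3.23 in SBN/y with 2 kidneys and from 2.89 over 3.20 to 3.21 in SBN/y with 1. It ran from 2.96 over 3.09 to 3.27 in SBH/y with 2 kidneys and from 3.33 over 3.52 to 3.75 in SBH/y with 1. The last group lay above every other sample, and the difference in SBH/y was 0.42 ± 0.08 (SE, 1.33-fold, adjusted p = 0.000992). Col11a1, a chain of the cartilage collagen type XI, measured 4.28, 4.33, 4.40, 4.42 and 4.48 in SBN/y with 2 kidneys and from 4.43 over 4.51 to 4.65 in SBN/y with 1. It ran from 3.95 over 4.23 to 4.62 in SBH/y with 2 kidneys and from 4.42 over 4.66 to 4.87 in SBH/y with 1, so the SBH/y groups overlapped. Its difference in SBH/y was 0.42 ± 0.09 (SE, adjusted p = 0.0029), but its 3 probe sets disagreed: the second gave 0.28 (adjusted p = 0.0236) and the third -0.03 (adjusted p = 0.914). The 5 fibrillar genes that were not called, Col5a1, Col27a1, Col11a2, Col2a1 and Col5a3, had differences between -0.12 and 0.17 in SBH/y. Highest among them was Col5a1, the partner chain of Col5a2, at 0.17 ± 0.07 (SE, adjusted p = 0.178).

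**Figure D2:**
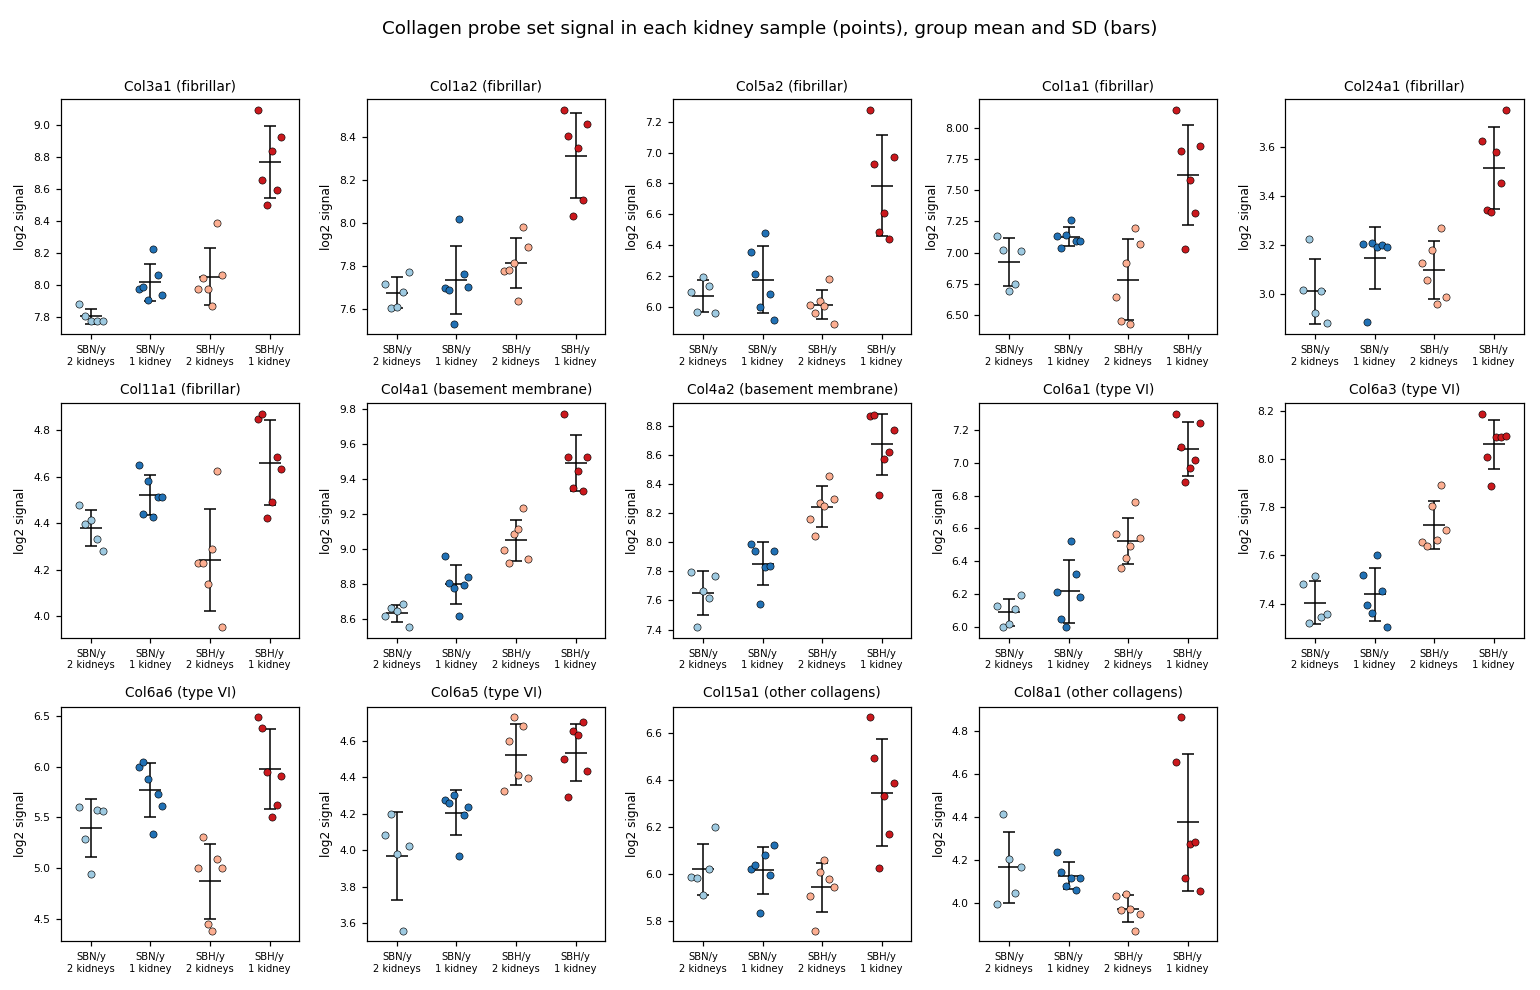
Log2 signal of 14 collagen genes in each of the 23 kidney samples (points), with group mean and SD (bars), in SBN/y with 2 kidneys and 1 kidney and SBH/y with 2 kidneys and 1 kidney. For Col1a2, Col3a1, Col24a1, Col4a1 and Col6a1 every SBH/y sample with 1 kidney lies above every sample of the other groups; Col6a5 is high in both SBH/y groups, and Col6a6 is lowest in SBH/y with 2 kidneys.

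Of the basement membrane genes, Col4a1 and Col4a2 rose in SBH/y and the rest did not pass the test. They encode the chains of the network found in nearly all basement membranes. Col4a1 measured 8.55, 8.62, 8.64, 8.67 and 8.68 in SBN/y with 2 kidneys and from 8.62 over 8.80 to 8.96 in SBN/y with 1. It ran from 8.92 over 9.04 to 9.23 in SBH/y with 2 kidneys and from 9.33 over 9.49 to 9.78 in SBH/y with 1. The SBH/y groups did not overlap with each other, nor did the strains at either kidney number. The rise in SBH/y was 0.44 ± 0.07 (SE, 1.36-fold, adjusted p = 0.000169), and a second probe set gave 0.44 (adjusted p = 0.000357). Col4a2 measured 7.42, 7.62, 7.67, 7.77 and 7.80 in SBN/y with 2 kidneys, from 7.58 over 7.89 to 7.99 in SBN/y with 1, from 8.04 over 8.26 to 8.46 in SBH/y with 2 and from 8.32 over 8.70 to 8.88 in SBH/y with 1. Every SBH/y sample lay above every SBN/y sample, and within SBH/y the groups overlapped, with a rise of 0.43 ± 0.09 (SE, 1.34-fold, adjusted p = 0.00351). Col4a1 and Col4a2 lie head to head, on opposite strands, with starts 77 bases apart, so their 300-base windows share 176 bases and the printed Col4a1 sequence holds the start of Col4a2 too.

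Col4a4 and Col4a5 belong to the network of the mature glomerular basement membrane, whose mutations are known from Alport syndrome. Col4a4 was not called after uninephrectomy. It measured 5.52, 5.62, 5.69, 5.71 and 5.78 in SBN/y with 2 kidneys and from 5.51 over 5.68 to 5.99 in SBN/y with 1. It ran from 5.20 over 5.37 to 5.61 in SBH/y with 2 kidneys and from 5.03 over 5.33 to 5.58 in SBH/y with 1. The SBH/y samples lay low at both kidney numbers, with overlap, and the difference after uninephrectomy in SBH/y was -0.11 ± 0.10 (SE, adjusted p = 0.681). Podocytes, the cells known to make these chains, were read from 5 marker genes. Of these, 3 fell in SBH/y after uninephrectomy, against 2.4% of all genes, and the part of podocytes in the Col4a4 values was not tested. Col4a5 was bright and flat, at 8.60, 8.70, 8.76, 8.84 and 8.86 in SBN/y with 2 kidneys, against medians of 8.64, 8.69 and 8.73 in SBN/y with 1 kidney, SBH/y with 2 and SBH/y with 1. Its difference in SBH/y was 0.03 ± 0.05 (SE, adjusted p = 0.858), and dim Col4a6 gave -0.01 ± 0.08 (SE, adjusted p = 0.971). The Col4a4 window is shown as that of the only collagen called lower in any comparison, and it held none of the letters searched.
Col4a4 (chr9:91323528-91323827, minus strand): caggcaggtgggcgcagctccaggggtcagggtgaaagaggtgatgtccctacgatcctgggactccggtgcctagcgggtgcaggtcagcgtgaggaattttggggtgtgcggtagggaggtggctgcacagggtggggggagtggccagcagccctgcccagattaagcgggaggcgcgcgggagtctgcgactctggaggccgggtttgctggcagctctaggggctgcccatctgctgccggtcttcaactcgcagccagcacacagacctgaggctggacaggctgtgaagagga

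The type VI class held the collagen with the largest rise. Col6a1 and Col6a2 encode short chains that join with a long chain, which Col6a3 encodes and for which the products of Col6a5 and Col6a6 can stand in. Col6a1 measured 6.0, 6.02, 6.11, 6.13 and 6.19 in SBN/y with 2 kidneys, from 6.0 over 6.20 to 6.52 in SBN/y with 1, from 6.36 over 6.52 to 6.76 in SBH/y with 2 and from 6.88 over 7.05 to 7.30 in SBH/y with 1. Each SBH/y group lay above the SBN/y group of the same kidney number, and the rise in SBH/y was 0.56 ± 0.08 (SE, 1.47-fold, adjusted p = 8.28e-05) with no overlap. Its neighbour Col6a2 measured 5.48, 5.5, 5.58, 5.67 and 5.69 in SBN/y with 2 kidneys, from 5.40 over 5.76 to 6.03 in SBN/y with 1, from 5.59 over 5.94 to 6.17 in SBH/y with 2 and from 5.97 over 6.21 to 6.34 in SBH/y with 1. The order of its groups was that of Col6a1, with more overlap, and its difference in SBH/y did not pass the test (0.28 ± 0.10, SE, adjusted p = 0.106). Col6a3 measured 7.32, 7.34, 7.36, 7.48 and 7.52 in SBN/y with 2 kidneys, from 7.30 over 7.42 to 7.60 in SBN/y with 1, from 7.64 over 7.68 to 7.89 in SBH/y with 2 and from 7.89 over 8.09 to 8.19 in SBH/y with 1. The SBH/y groups overlapped slightly, at 7.888 for the lowest with 1 kidney and 7.893 for the highest with 2. The rise was 0.33 ± 0.06 (SE, 1.26-fold, adjusted p = 0.00108). A second, dimmer Col6a3 probe set gave 0.09 (adjusted p = 0.726), so the call rests on the brighter one.

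Col6a6 and Col6a5 encode the alternative long chains. Col6a6 measured 4.94, 5.29, 5.57, 5.58 and 5.61 in SBN/y with 2 kidneys and from 5.34 over 5.80 to 6.04 in SBN/y with 1. It ran from 4.38 over 4.99 to 5.30 in SBH/y with 2 kidneys and from 5.5 over 5.93 to 6.49 in SBH/y with 1. SBH/y with 2 kidneys was the low group, and the rise in SBH/y after uninephrectomy was 1.11 ± 0.17 (SE, 2.15-fold, adjusted p = 0.000122), to a level that overlapped SBN/y with 1 kidney. Dim Col6a5 measured 3.56, 3.98, 4.02, 4.08 and 4.20 in SBN/y with 2 kidneys, from 3.97 over 4.25 to 4.30 in SBN/y with 1, from 4.32 over 4.50 to 4.73 in SBH/y with 2 and from 4.29 over 4.56 to 4.70 in SBH/y with 1. It was high in both SBH/y groups, with a difference of 0.01 ± 0.09 (SE, adjusted p = 0.981) between the SBH/y groups. Col6a5 and Col6a6 are neighbours in the genome with 0 protein-coding genes between them.

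Among the 20 other collagens, 2 rose in SBH/y. Col15a1, a collagen of the outer basement membrane zone, measured 5.91, 5.98, 5.99, 6.02 and 6.20 in SBN/y with 2 kidneys, from 5.83 over 6.03 to 6.13 in SBN/y with 1, from 5.76 over 5.96 to 6.06 in SBH/y with 2 and from 6.03 over 6.36 to 6.67 in SBH/y with 1. It thus lay at 1 level in 3 groups and higher in the fourth, with a rise of 0.40 ± 0.08 (SE, 1.32-fold, adjusted p = 0.00238) and 0.38 (adjusted p = 0.00431) in a second probe set. Dim Col8a1, a short-chain network collagen of vessel walls, measured 3.99, 4.05, 4.17, 4.20 and 4.42 in SBN/y with 2 kidneys, from 4.06 over 4.12 to 4.24 in SBN/y with 1, from 3.87 over 3.97 to 4.04 in SBH/y with 2 and from 4.06 over 4.28 to 4.87 in SBH/y with 1. The SBH/y groups did not overlap, and the difference was 0.40 ± 0.10 (SE, adjusted p = 0.0126). This call was lost when only the groups compared were fitted (adjusted p = 0.0618) and with the GAPDH measure of RNA quality as a covariate (adjusted p = 0.0849). The other 18 genes had differences between -0.18 and 0.11, among them Col12a1 and Col14a1, whose products bind to the surface of fibres, at 0.08 ± 0.08 (SE, adjusted p = 0.691) and 0.11 ± 0.07 (SE, adjusted p = 0.539).

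Single samples lay high or low in several of the called genes. Of the 6 SBH/y samples with 1 kidney, replicate 1 was highest in 9 of the 13 called genes and replicate 3 was lowest in 9. Of the SBH/y samples with 2 kidneys, replicate 5 was highest in 10 of the 13. Averaged over the 13 genes and set against the mean of SBN/y with 2 kidneys, the SBH/y samples with 1 kidney ran from 0.39 to 0.94 and those with 2 kidneys from -0.01 to 0.28. The 13 genes were chosen by the difference between these SBH/y groups, so the separation seen here follows from that choice. Leaving out any 1 of the 23 samples kept the count of collagens called higher in SBH/y at 13.

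**Figure D3:**
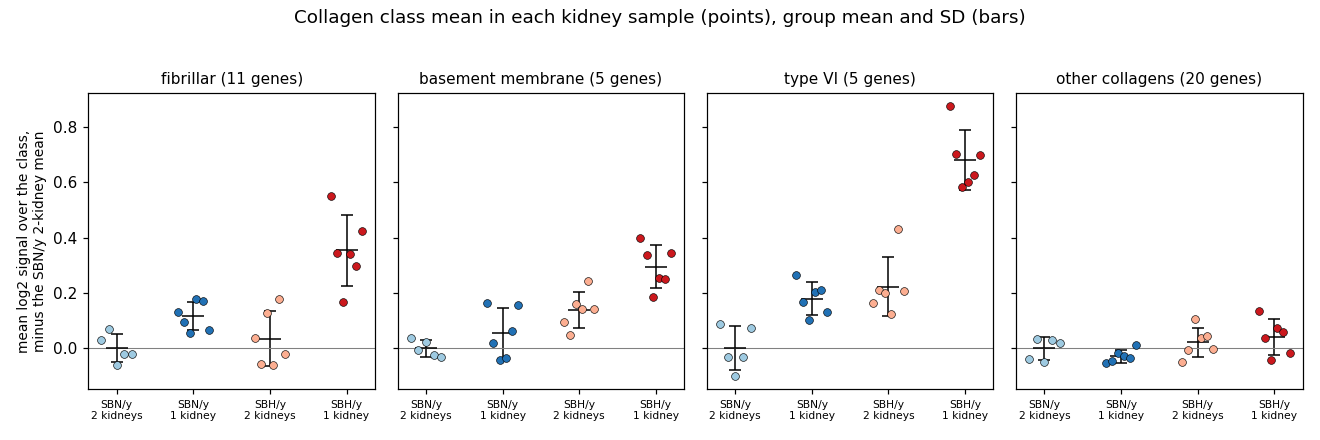
Mean log2 signal over the genes of each collagen class in each kidney sample (points), minus the mean of SBN/y with 2 kidneys, with group mean and SD (bars). Type VI was highest in SBH/y with 1 kidney at 0.68 ± 0.11 (SD, n = 6), fibrillar collagens reached 0.35 ± 0.13 (SD, n = 6), and the 20 other collagens stayed near 0.

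In SBN/y rats, no collagen was called after uninephrectomy. With limma, 0 of the 41 genes had an adjusted p under 0.05 in either direction, where 0.155% of all genes were called higher and 0.0985% lower, and 8 had an unadjusted p under 0.05, a share to be read against 8.36% of all genes. The count stayed at 0 in every alternative setting and without any 1 sample. The differences were small and mostly positive in the fibrillar and type VI classes, with all 11 fibrillar genes between 0.02 and 0.21 (median 0.12) and all 5 type VI genes between 0.04 and 0.37 (median 0.13). Basement membrane genes ran from -0.11 to 0.20 and the other collagens from -0.17 to 0.09. Col3a1 was the only collagen whose SBN/y groups did not overlap, with 1 kidney above 2 by 0.21 ± 0.09 (SE, adjusted p = 0.561), a pattern seen in 0.943% of all genes (the opposite pattern in 0.71%, and in 0 collagens). Col6a6 had the largest SBN/y difference, 0.37 ± 0.18 (SE, adjusted p = 0.644). Col1a1 and Col1a2 gave 0.20 ± 0.15 (SE, adjusted p = 0.858) and 0.06 ± 0.09 (SE, adjusted p = 0.958).

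The difference between the responses of the strains was tested by itself. With limma, 0 of 41 collagens passed, against 0.331% of all genes higher and 0.0774% lower, and 13 had an unadjusted p under 0.05, against 9.54% of all genes. The rise in SBH/y was therefore not shown to exceed the change in SBN/y for any single collagen. The smallest adjusted p belonged to Col5a2, whose response was larger in SBH/y by 0.66 ± 0.16 (SE, adjusted p = 0.0773), and to Col3a1, by 0.50 ± 0.13 (SE, adjusted p = 0.0984). Col1a2 followed with 0.44 ± 0.12 (SE, adjusted p = 0.13). By class the median of this difference was 0.28 in the fibrillar, 0.30 in the type VI, 0.14 in the basement membrane and 0.01 in the other collagens, with 0.00 over all genes. This test sat near its threshold, and single samples moved it. Without replicate 4 of SBN/y with 1 kidney 4 genes passed (Col1a2, Col3a1, Col5a2 and Col6a1), and without replicate 3 of SBH/y with 1 kidney 4 passed (Col1a2, Col3a1, Col5a2 and Col15a1). Col3a1 alone passed without replicate 5 of SBH/y with 2 kidneys (adjusted p = 0.024) and with a trended, robust variance (adjusted p = 0.0467), and Col5a2 alone without replicate 5 of SBH/y with 1 kidney.

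In rats with both kidneys, the strains differed in type IV and type VI chains and in Col12a1. With 2 kidneys, 7 of 41 collagens were higher in SBH/y and 0 were lower, against 5.5% and 5.54% of all genes: Col4a1, Col4a2, Col6a1, Col6a2, Col6a3, Col6a5 and Col12a1. In 5 of these, Col4a1, Col4a2, Col6a1, Col6a3 and Col6a5, every SBH/y sample lay above every SBN/y sample, as in 4.92% of all genes. The reverse held for Col9a3 alone, a dim chain of type IX collagen that was not called (-0.21 ± 0.07, SE, adjusted p = 0.0522), against 4.8% of all genes. At an unadjusted p under 0.05 there were 14 of 41, against 22.4%. None of the 11 fibrillar genes was called. Col4a2 differed by 0.59 ± 0.09 (SE, 1.51-fold, adjusted p = 5.31e-05), Col4a1 by 0.42 ± 0.07 (SE, adjusted p = 0.000196) and Col6a5 by 0.55 ± 0.10 (SE, 1.47-fold, adjusted p = 0.00021). In the type VI core chains the strain difference with 2 kidneys was 0.43 ± 0.09 for Col6a1 (SE, adjusted p = 0.000992) and 0.32 ± 0.07 for Col6a3 (SE, adjusted p = 0.00104), whose second, dimmer probe set gave 0.19 (adjusted p = 0.305). The type I and III genes gave -0.14 ± 0.15 for Col1a1 (SE, adjusted p = 0.712), 0.14 ± 0.09 for Col1a2 (SE, adjusted p = 0.421) and 0.25 ± 0.09 for Col3a1 (SE, adjusted p = 0.0988).

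The calls of Col6a2 and Col12a1 had the highest adjusted p of the 7. Col6a2 differed by 0.33 ± 0.10 with 2 kidneys (SE, adjusted p = 0.0375) and lost its call without any 1 of replicates 1, 2 and 3 of SBN/y or replicates 3, 4 and 5 of SBH/y with 2 kidneys (adjusted p up to 0.106), with the GAPDH covariate (adjusted p = 0.123) and without both arrays at the ends of the second principal component (adjusted p = 0.0791). Its second probe set gave -0.06 (adjusted p = 0.817). Col12a1 measured 6.91, 7.0, 7.10, 7.13 and 7.24 in SBN/y with 2 kidneys, from 7.03 over 7.10 to 7.40 in SBN/y with 1, from 7.16 over 7.37 to 7.53 in SBH/y with 2 and from 7.28 over 7.44 to 7.66 in SBH/y with 1. It was thus higher in SBH/y at both kidney numbers, with overlap, by 0.30 ± 0.08 with 2 kidneys (SE, adjusted p = 0.0165). That call was lost without replicate 2 of SBN/y with 2 kidneys and with the GAPDH covariate, with adjusted p-values up to 0.0862.

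With 1 kidney, 15 of 41 collagens were higher in SBH/y than in SBN/y and 1 was lower, against 10.2% and 7.48% of all genes. The 15 held 5 fibrillar genes (Col1a1, Col1a2, Col3a1, Col5a2 and Col24a1), Col4a1 and Col4a2, the type VI genes Col6a1, Col6a2, Col6a3 and Col6a5, and Col8a2, Col12a1, Col15a1 and Col18a1. Every SBH/y sample lay above every SBN/y sample in 8 of them, as in 5.32% of all genes, and below in Col9a2, another type IX chain that was not called (-0.22 ± 0.08, SE, adjusted p = 0.0736), against 4.49%. At an unadjusted p under 0.05 there were 20 of 41, against 28.8%. This comparison uses the same SBH/y samples with 1 kidney as the uninephrectomy comparison in SBH/y, so the shared names are not separate evidence. The largest differences were 0.87 ± 0.08 for Col6a1 (SE, 1.82-fold, adjusted p = 9.69e-09), 0.82 ± 0.09 for Col4a2 (SE, 1.77-fold, adjusted p = 9.91e-08) and 0.75 ± 0.09 for Col3a1 (SE, adjusted p = 2.56e-07). Col4a1 differed by 0.69 ± 0.07 (SE, 1.62-fold, adjusted p = 2.29e-08) and Col6a3 by 0.62 ± 0.06 (SE, adjusted p = 2.04e-08). With the next probe set of the gene, 3 of the 15 calls were lost, as Col6a3 gave 0.24 (adjusted p = 0.105), Col6a2 0.00 (adjusted p = 0.992) and Col12a1 0.15 (adjusted p = 0.202). Col1a1, at 0.50 ± 0.14 (SE, adjusted p = 0.0172), lost its call without replicate 1 of SBH/y with 1 kidney (adjusted p = 0.0648) and with the GAPDH covariate (adjusted p = 0.119).

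**Figure D4:**
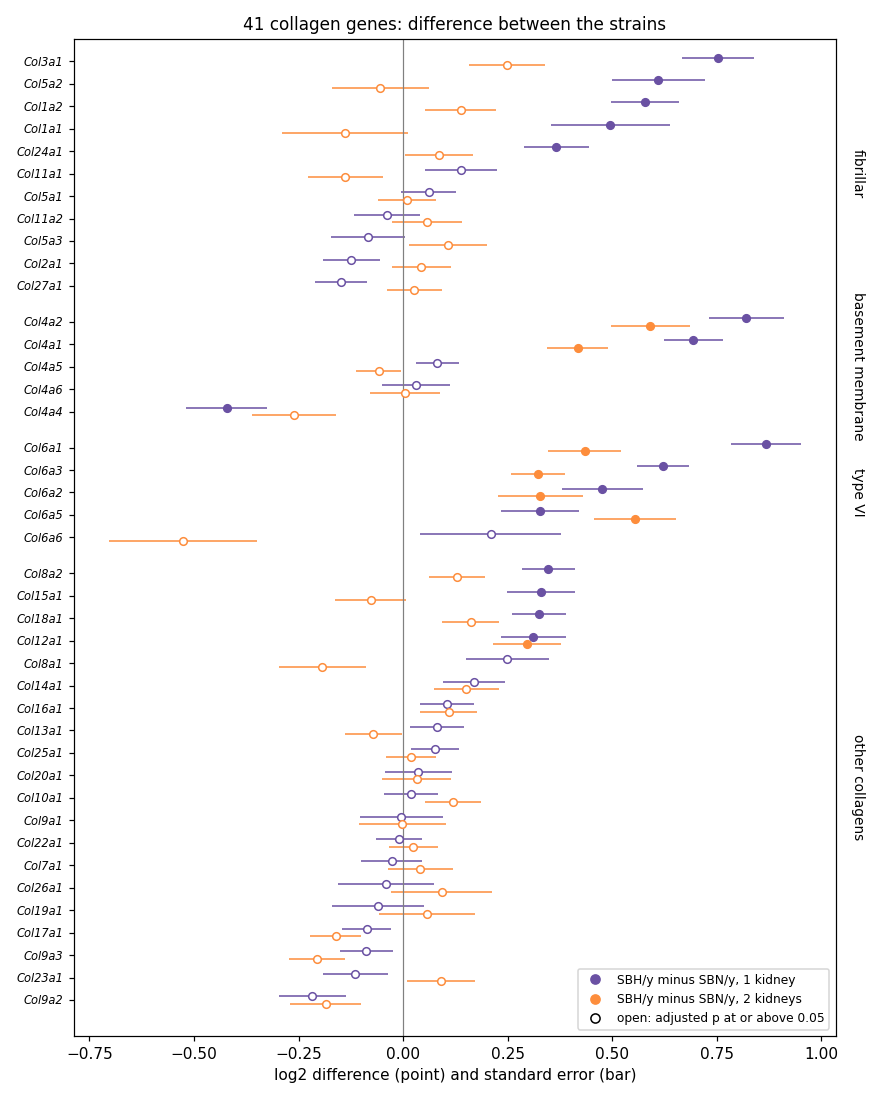
Log2 difference of SBH/y minus SBN/y for each of the 41 collagen genes (points) with its standard error (bars), with 1 kidney (purple) and with 2 kidneys (orange), grouped by class; filled points have an adjusted p under 0.05. Filled orange points, 7 in all, lie in the basement membrane and type VI classes and at Col12a1, whereas the fibrillar genes have filled points with 1 kidney only.

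Some genes called between the strains with 1 kidney did not pass the test after uninephrectomy in SBH/y. Col18a1, whose product is the source of endostatin, measured 7.73, 7.78, 7.84, 7.84 and 8.01 in SBN/y with 2 kidneys, from 7.68 over 7.75 to 7.89 in SBN/y with 1, from 7.91 over 8.01 to 8.05 in SBH/y with 2 and from 7.83 over 8.07 to 8.27 in SBH/y with 1. With 1 kidney it was higher in SBH/y by 0.33 ± 0.06 (SE, adjusted p = 0.000611), and within SBH/y it differed by 0.08 ± 0.06 (SE, adjusted p = 0.603). Col8a2, the partner chain of Col8a1, measured 5.82, 5.99, 6.01, 6.03 and 6.20 in SBN/y with 2 kidneys, from 5.74 over 5.85 to 5.92 in SBN/y with 1, from 6.02 over 6.09 to 6.32 in SBH/y with 2 and from 6.07 over 6.17 to 6.33 in SBH/y with 1. The strains did not overlap with 1 kidney, at 0.35 ± 0.06 (SE, adjusted p = 0.000237), where SBN/y lay low (1 kidney minus 2 kidneys, -0.17 ± 0.07, SE, adjusted p = 0.49). The 1 collagen called lower in SBH/y was Col4a4, at -0.42 ± 0.10 (SE, 0.746-fold, adjusted p = 0.00231). With 2 kidneys its difference was -0.26 ± 0.10 (SE, adjusted p = 0.119). Altogether 19 collagens were called in at least 1 comparison and 22 in none.

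The genes that make, process, bind and break down collagen were read from 6 lists. Their median differences in SBH/y after uninephrectomy were 0.12 log2 for chain modification, 0.33 for cleavage and crosslinking, 0.06 for fibre-bound proteins, 0.10 for degradation, 0.14 for receptors and 0.08 for regulators, beside 0.00 over all genes. The counts of called genes in the lists stand beside 4.76% higher and 2.4% lower over all genes after uninephrectomy in SBH/y, and 0.155% and 0.0985% in SBN/y. Between the strains, SBH/y was higher in 5.5% and lower in 5.54% of all genes with 2 kidneys, and in 10.2% and 7.48% with 1. Of the enzymes and chaperones that modify and fold the chains, 18 of 20 were measured, and 2 rose in SBH/y after uninephrectomy (4.76% of all genes). Fkbp10, a chaperone of procollagen, rose by 0.31 ± 0.07 (SE, adjusted p = 0.00617), and Plod1, a lysyl hydroxylase, by 0.18 ± 0.05 (SE, adjusted p = 0.0458). Ppib, a prolyl isomerase, and Plod2, another lysyl hydroxylase, gave 0.15 ± 0.05 (SE, adjusted p = 0.0514) and 0.28 ± 0.10 (SE, adjusted p = 0.133). Leaving out any 1 of 17 samples ended the Plod1 call (adjusted p up to 0.109), whose adjusted p reached 0.117 over all alternatives. Between the strains, 3 genes of this list were higher and 3 lower in SBH/y with 2 kidneys (5.5% and 5.54% of all genes), and 3 and 2 with 1 (10.2% and 7.48%). Plod2 was among the lower with 2 kidneys, by -0.33 ± 0.11 (SE, adjusted p = 0.0499), and lost that call without any 1 of 15 samples (adjusted p up to 0.133). P4ha2, a prolyl hydroxylase chosen after its values were seen, was 5.99 ± 0.10 in SBN/y (SD, n = 5) and 6.84 ± 0.08 in SBH/y (SD, n = 6) with 2 kidneys, a difference of 0.85 ± 0.06 (SE, adjusted p = 1.32e-10), and it differed by 0.72 ± 0.06 with 1 kidney (SE, adjusted p = 1.02e-09). P4ha1, also chosen after its values were seen, was the only gene of the 6 lists called after uninephrectomy in SBN/y, at 0.46 ± 0.09 (SE, adjusted p = 0.0302), with adjusted p-values up to 0.134 when single samples were left out or the setting changed.

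Of 8 measured genes (14 listed) that cleave procollagen or crosslink collagen, 4 rose in SBH/y and 0 fell (4.76% and 2.4% of all genes), and 0 were called in SBN/y. The 4 all encode crosslinking enzymes. Loxl1, a lysyl oxidase, rose by 0.46 ± 0.07 (SE, adjusted p = 0.000173) and Pxdn, the peroxidase that crosslinks type IV collagen, by 0.54 ± 0.10 (SE, adjusted p = 0.000611). The lysyl oxidases Loxl2 and Lox rose by 0.56 ± 0.14 (SE, adjusted p = 0.011) and 0.41 ± 0.10 (SE, adjusted p = 0.0141). The Loxl2 call was lost with only the groups compared and with the GAPDH covariate, and the Lox call without replicate 1 of SBH/y with 1 kidney (adjusted p up to 0.0759 and 0.0537). Between the strains, 1 gene of this list was higher in SBH/y with 2 kidneys (5.5% of all genes) and 4 with 1 (10.2%), and 0 were lower. Lox differed between the strains, by 0.57 ± 0.11 with 2 kidneys (SE, adjusted p = 0.000473) and 0.96 ± 0.10 with 1 (SE, adjusted p = 5.73e-08). Of 13 measured proteoglycans and glycoproteins of the fibre surface, 3 rose in SBH/y and 0 fell (4.76% and 2.4% of all genes). Fn1, fibronectin, rose by 0.42 ± 0.08 (SE, adjusted p = 0.00151), Sparc, a collagen-binding glycoprotein, by 0.32 ± 0.07 (SE, adjusted p = 0.0029) and Bgn, biglycan, by 0.31 ± 0.09 (SE, adjusted p = 0.0454), with up to 0.231 for Bgn over the alternatives. Between the strains 2 of the 13 were higher in SBH/y with 2 kidneys (5.5% of all genes) and 4 with 1 (10.2%). Osteomodulin (Omd) gave -0.22 ± 0.08 (SE, adjusted p = 0.15).

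Collagen-degrading enzymes and their inhibitors changed in both directions. Of 15 measured genes, 7 rose in SBH/y after uninephrectomy and 1 fell (4.76% and 2.4% of all genes), and 0 were called in SBN/y (0.155% and 0.0985%). Timp1, an inhibitor of matrix metalloproteinases, was 5.68 ± 0.11 in SBN/y with 2 kidneys (SD, n = 5), 5.77 ± 0.18 in SBN/y with 1 (SD, n = 6), 6.01 ± 0.10 in SBH/y with 2 (SD, n = 6) and 6.96 ± 0.30 in SBH/y with 1 (SD, n = 6). It rose in SBH/y by 0.95 ± 0.10 (SE, adjusted p = 1.06e-06), and by 0.86 ± 0.15 more than in SBN/y (SE, adjusted p = 0.00561). The collagenase of the cell surface Mmp14 and the gelatinase Mmp2 rose by 0.52 ± 0.08 (SE, adjusted p = 8.23e-05) and 0.47 ± 0.08 (SE, adjusted p = 0.000316). Their responses also exceeded those in SBN/y, by 0.54 ± 0.11 (SE, adjusted p = 0.028) and 0.55 ± 0.11 (SE, adjusted p = 0.0245). Both were lower in SBH/y than in SBN/y with 2 kidneys, Mmp14 by -0.27 ± 0.08 (SE, adjusted p = 0.0337) and Mmp2 by -0.53 ± 0.08 (SE, adjusted p = 3.02e-05). The strain call of Mmp14 with 2 kidneys was lost without any 1 of 7 samples (adjusted p up to 0.085). The difference in response was lost without any 1 of 8 samples for Mmp14 and of 7 for Mmp2, with adjusted p-values up to 0.065 and 0.0626. For Mmp2 it was also lost without both arrays at the ends of the second principal component (adjusted p = 0.0566). Timp1, Mmp14 and Mmp2 were the 3 of the 15 with a response called larger in SBH/y, and 0 were smaller (0.331% and 0.0774% of all genes). Between the strains, 2 of the 15 were higher and 3 lower in SBH/y with 2 kidneys (5.5% and 5.54% of all genes), and 5 and 1 with 1 (10.2% and 7.48%). Timp1 was among the higher with 2 kidneys, by 0.33 ± 0.11 (SE, adjusted p = 0.0493), and lost that call without any 1 of 18 samples (adjusted p up to 0.118), with the GAPDH covariate (adjusted p = 0.0793) and without both arrays at the ends of the second principal component (adjusted p = 0.107). Ctsl, the lysosomal protease cathepsin L, rose by 0.35 ± 0.05 (SE, adjusted p = 5.22e-05). The gene that fell was Mmp9, another gelatinase, chosen after its values were seen, at -0.52 ± 0.12 (SE, adjusted p = 0.00678); it was dim, and higher in SBH/y than in SBN/y with 2 kidneys by 0.96 ± 0.12 (SE, adjusted p = 2.57e-06).

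**Figure D5:**
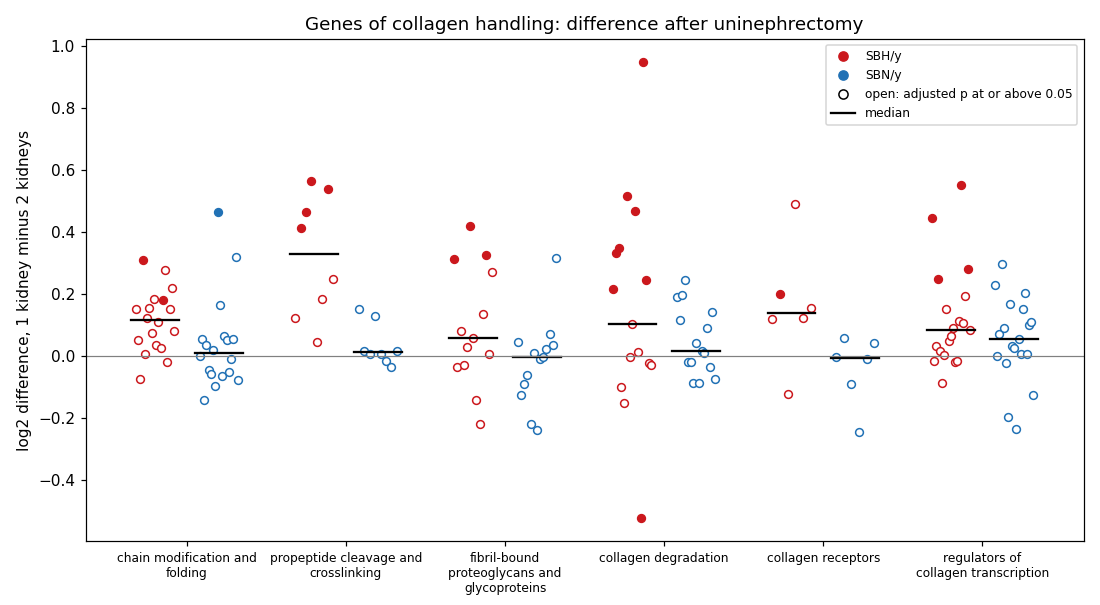
Log2 difference of 1 kidney minus 2 kidneys for each measured gene of 6 lists of collagen handling, in SBH/y (red) and SBN/y (blue); filled points have an adjusted p under 0.05 and black lines are list medians. The median of the cleavage and crosslinking list is 0.33 in SBH/y and 0.01 in SBN/y, and the highest red point is Timp1 at 0.95.

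Of 6 measured collagen receptors, 1 rose in SBH/y (4.76% of all genes). Ddr1, a receptor tyrosine kinase that binds collagen, rose by 0.20 ± 0.05 (SE, adjusted p = 0.0214; up to 0.0879 over the alternatives), while its relative Ddr2 gave -0.12 ± 0.06 (SE, adjusted p = 0.343). Between the strains, 1 of the 6 receptors was higher and 1 lower in SBH/y with 1 kidney (10.2% and 7.48% of all genes). The lower was Ddr2, at -0.19 ± 0.06 (SE, adjusted p = 0.0425), whose call was lost without any 1 of 7 samples (adjusted p up to 0.106), with a trended, robust variance (adjusted p = 0.0574) and with only the groups compared (adjusted p = 0.0757). The integrin chains Itga1 and Itgb1 gave 0.49 ± 0.18 (SE, adjusted p = 0.142) and 0.15 ± 0.07 (SE, adjusted p = 0.271). Of 19 measured regulators of collagen transcription, 4 rose in SBH/y and 0 fell (4.76% and 2.4% of all genes), and 0 were called in SBN/y. Tgfb1, the cytokine best known for inducing collagen genes, was 5.67 ± 0.13 in SBH/y with 2 kidneys (SD, n = 6) and 6.22 ± 0.20 with 1 (SD, n = 6), a rise of 0.55 ± 0.10 (SE, adjusted p = 0.000459). Ccn2, the connective tissue growth factor gene, rose by 0.45 ± 0.10 (SE, adjusted p = 0.00675). It was also higher in SBH/y than in SBN/y by 0.62 ± 0.11 with 2 kidneys (SE, adjusted p = 0.000128) and 0.84 ± 0.10 with 1 (SE, adjusted p = 4.83e-07). Comparing the strains, SBH/y had the higher level in 2 of the 19 regulators with 2 kidneys (5.5% of all genes) and in 5 with 1 (10.2%). The receptor gene Tgfbr1 rose by 0.28 ± 0.07 (SE, adjusted p = 0.0236) and Nfya, a subunit of the factor that binds CCAAT, by 0.25 ± 0.07 (SE, adjusted p = 0.0403). Both calls were weak. Leaving out any 1 of 4 samples ended that of Tgfbr1 (adjusted p up to 0.0647) and any 1 of 8 that of Nfya (up to 0.113). Both were also lost with only the groups compared (adjusted p = 0.0681 and 0.11) and without both arrays at the ends of the second principal component (0.142 and 0.172), the Tgfbr1 call with the GAPDH covariate (0.0829), and that of Nfya with a trended, robust variance (0.0513).

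Cell markers moved with the same comparisons. Marker counts after uninephrectomy in SBH/y stand beside 4.76% higher and 2.4% lower over all genes. Of 12 fibroblast and pericyte markers, 2 rose in SBH/y after uninephrectomy (Pdgfrb and Vim) and 0 fell, and the log2 of their summed signal ran from 11.07 to 11.20 in SBH/y with 2 kidneys and from 11.23 to 11.53 with 1. It ran from 11.10 to 11.25 in SBN/y with 2 kidneys and from 10.99 to 11.43 with 1, and Lum, Cspg4, Notch3 and Gli1 lay below the median probe set. Bright genes weigh most in this sum, and in SBH/y Vim rose by 0.74, while Pdgfra and Dcn, not called, gave 0.14 and 0.08. The median difference of the 12 markers in SBH/y was 0.07, with 7 positive and 5 negative. Of 8 smooth muscle markers 2 rose (Tagln and Des), with summed levels from 9.69 to 9.80 in SBN/y with 2 kidneys, 9.69 to 9.89 in SBN/y with 1, 9.87 to 10.15 in SBH/y with 2 and 9.94 to 10.28 in SBH/y with 1, and with Cnn1 and Actg2 dim. Macrophage markers rose in 7 of 10, with summed levels from 10.73 to 10.83 in SBN/y with 2 kidneys, 10.82 to 11.35 in SBN/y with 1, from 11.33 to 11.48 in SBH/y with 2 and from 11.72 to 12.06 in SBH/y with 1, and Cd163, Mrc1 and Itgam dim. Lyz2, the brightest of the 10, weighs most in this sum, at 10.38 in SBN/y and 11.16 in SBH/y with 2 kidneys. Between the strains with 2 kidneys the median difference of the 10 markers was 0.04, with 7 positive and 3 negative. The 8 proximal tubule markers, which identify the kidney's main tissue, were bright in all samples, and 0 were called. Of the remaining lists, 2 of 5 mesangial markers rose (Serpine2 and Pdgfrb) and 1 fell. Pdgfrb is the gene already counted among the fibroblast and pericyte markers. Markers fell in 3 of 5 for podocytes, 2 of 7 for endothelium, 1 of 7 for the loop and distal tubule (Slc4a1) and 1 of 6 for adipocytes. In the red blood cell list and the list of skeletal muscle and cartilage 0 of 2 and 0 of 5 were called.

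Between the strains the markers differed too, beside 5.5% higher and 5.54% lower over all genes with 2 kidneys and 10.2% and 7.48% with 1. Macrophage markers were higher in SBH/y in 3 of 10 with 2 kidneys and 6 of 10 with 1, and 1 was lower in each (Mrc1). Smooth muscle markers were higher in 2 of 8 and 4 of 8, fibroblast and pericyte markers in 0 of 12 and 3 of 12, and mesangial markers in 1 of 5 and 2 of 5. With 1 kidney Pdgfrb counts in both of the last lists. Both red blood cell markers were lower in SBH/y with 2 kidneys, Hbb by -0.53 (adjusted p = 0.0126) and Alas2 by -0.81 (adjusted p = 0.000287), and both were lower with 1. The cartilage gene Matn1 was lower by -2.61 with 2 kidneys (adjusted p = 2.91e-14) and -2.24 with 1 (adjusted p = 1.54e-13), while the other 4 genes of its list were dim. Adipocyte markers were lower in 2 of 6 with 2 kidneys, among them Fabp4 by -0.83 (adjusted p = 0.0178), and in 1 of 6 with 1. Proximal tubule markers were higher in 2 of 8 and 1 of 8, with Slc5a12 at 0.76 (adjusted p = 1.69e-05) and 0.49 (adjusted p = 0.00164). In the loop and distal tubule list, 1 of 7 was higher (Aqp2) and 1 of 7 lower (Calb1) with 2 kidneys. The same list had 1 higher (Aqp2) and 2 lower (Calb1 and Slc4a1) with 1. Its members Umod, Slc12a1, Slc12a3 and Kcnj1 were not called at either kidney number. With 1 kidney, endothelial markers were higher in 1 of 7 and lower in 2 of 7, and 1 of 5 podocyte markers was lower.

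RNA quality moved too: the GAPDH control signal at the 3′ end minus the 5′ end was 0.35 ± 0.03 log2 in SBN/y with 2 kidneys (SD, n = 5), 0.45 ± 0.04 in SBN/y with 1 (SD, n = 6), 0.46 ± 0.06 in SBH/y with 2 (SD, n = 6) and 0.53 ± 0.11 in SBH/y with 1 (SD, n = 6). With this measure as a covariate, 12, 0, 5 and 14 collagens were called higher in SBH/y and SBN/y after uninephrectomy and between the strains with 2 kidneys and with 1. The shares of all genes called with this covariate were not computed, so these counts have no such share beside them. The part of the cell markers in the collagen differences was not tested.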

How the data were processed

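Arrays of 23 rat kidney RNA samples gave 1 value per probe set. These were deposited as log2 values and come from GCOS and RMA according to the submitters' processing notes, with no version given. RMA makes the distributions of the arrays nearly equal, so a change in total mRNA could not be seen. Array medians lay between 4.65 and 4.69. The table held 31099 probe sets, and 57 of them were controls and not tested. Among the other 31042, the platform annotation gave 20826 a single symbol, 436 several and 9780 none, and 20758 matched RefSeq (GRCr8) by gene identifier.

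A single linear model in limma 3.58.1 (R 4.3.3) estimated the mean of each of the 4 groups. Tests were two-sided, with Benjamini-Hochberg adjustment over all 31042 probe sets and a threshold of 0.05. Percentages of all genes are over 14217 genes, 1 probe set each. The number of arrays sets the precision. The scripts were tested on simulated data. Collagens described with all values are up to 6 of each class with the smallest p, among those called in SBH/y after uninephrectomy or differing between strains by at least 0.5 log2, and others are named where they were called or mark the limit of a class. Up to 4 genes with the smallest p in SBH/y after uninephrectomy are named per list. The members, lists and rules were chosen with earlier results of these data known.

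Alternatives covered normalization (quantile, repeated), dim probe sets removed, limma's trended and robust variance, separate fits of the groups compared, other choices of probe set per gene, a GAPDH covariate, a block for the replicate number and the omission of each sample. Omitting both arrays at the ends of the second principal component was added after the data had been examined.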

Additional observations from a re-analysis of the deposited data

Results flagged for a closer look

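For each of 19 collagens, the gap between an extreme sample and its nearest neighbour was set against the range of its group. Of 76 combinations of gene and group, 3 exceeded the critical value, and chance alone flags about 1 in 20. Col3a1 was 8.39 in replicate 5 of SBH/y with 2 kidneys, where the others ran from 7.87 to 8.06. Dim Col24a1 was 2.89 in replicate 2 of SBN/y with 1 kidney, where the others ran from 3.19 to 3.21. Dim Col6a5 was 3.97 in replicate 4 of SBN/y with 1 kidney, where the others ran from 4.20 to 4.30. The response to uninephrectomy was called larger in SBH/y for 3 of 15 measured genes of collagen degradation, and smaller for 0. Over all genes the shares were 0.331% and 0.0774%. The response was larger in SBH/y by 0.86 log2 for Timp1, 0.54 for Mmp14 and 0.55 for Mmp2. The last 2 were near the threshold. The Mmp14 call was lost without any 1 of 8 samples (adjusted p up to 0.065), and that of Mmp2 without any 1 of 7 (up to 0.0626) and without both arrays at the ends of the second principal component (0.0566).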

How the results depend on the processing

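The counts of collagens called higher kept within 1.5 times of their main values in SBH/y and SBN/y after uninephrectomy and between the strains, in every setting tried. Shares of all genes were computed in the main setting only. In SBH/y 13 were called, also without any 1 sample (13 to 13), 12 with only the groups compared, 12 with the GAPDH covariate, 12 with the next probe set and 10 with only probe sets at or above the median level, where Col11a1, Col24a1 and Col8a1 were not tested. Without any 1 sample, the count with 2 kidneys ran from 5 to 7 higher and from 0 to 2 lower in SBH/y than in SBN/y, with 1 kidney from 14 to 16 higher and from 1 to 2 lower, and for the difference in response from 0 to 4 higher. Counts of 0 lower with 2 kidneys became 1 with quantile normalization (Col9a3), 1 with bright probe sets only (Col6a6), 2 with only the groups compared (Col4a4 and Col9a3), 1 with 1 probe set per gene (Col9a3), 2 with the GAPDH covariate (Col4a4 and Col9a3) and 1 with the replicate block (Col6a6). The 1 lower with 1 kidney became 2 with bright probe sets only (Col9a2), and the 0 higher for the difference in response became 1 with a trended and robust variance (Col3a1). The cause was not tested. Among the differences of named genes that were called in the main or the alternative setting, only that of Col6a2 reversed direction. It was -0.060 for the strains with 2 kidneys when the next Col6a2 probe set was used. Changes of sign in differences called in neither setting were not counted. The labels do not say whether the replicate numbers pair the samples. The 22 correlations of same-numbered samples ran from -0.171 to 0.259, with 6 above 0.1. Those of differently numbered samples were not computed for reference, so this check cannot exclude pairing. With the replicate block, 13 and 0 were called higher after uninephrectomy in SBH/y and SBN/y, 7 and 15 between the strains with 2 kidneys and 1, and 0 for the difference in response. The block also moved past the threshold the adjusted p of Mmp2 for the difference in response (0.0599), of Timp1 between the strains with 2 kidneys (0.0866), of Plod1 in SBH/y (0.0622) and of P4ha1 in SBN/y (0.0513). Signal near background limits what the 21 dim collagens can show.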
